A study of Sus scrofa with 15 samples.

Results

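FRMD1, FAM131C, IYD and RIPK4 were read in only a few counts per library in backfat of pigs on the control diet, and all were higher in pigs on the wet olive cake diet. They are 4 of the 30477 genes listed per library, and they were chosen by their measured log2FC of that diet against the control, with no threshold fixed. Their values in this contrast are therefore a description and carry no test. The levels came from RNA-seq of subcutaneous backfat biopsies of growing Iberian pigs, with 5 pigs per diet and 1 library per pig. The control pigs (C) received a compound feed without olive by-product. The DOP pigs received a compound feed made with dry olive pulp. The WCOC pigs received another compound feed free of by-product, and beside it a free supply of silage from wet crude olive cake and straw. All compound feeds were given below the free intake, more so in DOP and WCOC than in C. The pigs were of the same breed, were biopsied at the end of the growing period, and stayed in 1 pen per diet, so a pen and its diet cannot be told apart. The biopsies sequenced were those with the most and the best RNA, and ages and sexes per pig are not given in the sources used here.

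The 4 genes belong to different families. FRMD1 encodes a protein with a FERM domain, the module by which such proteins attach membrane proteins to the cytoskeleton, and its closest relative FRMD6 acts upstream of the Hippo kinases. IYD encodes iodotyrosine deiodinase, the flavoenzyme that strips iodide from mono- and diiodotyrosine and so returns it to thyroid hormone synthesis, a role known from the thyroid gland. RIPK4 encodes a kinase of the RIP family with ankyrin repeats, required for the differentiation of epidermal keratinocytes. FAM131C encodes a protein of a small family whose function is poorly known. None of them is a classical gene of the fat cell.

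The Sscrofa11.1 annotation of RefSeq places FRMD1 (ENSSSCG00000004017) on the plus strand of chromosome 1 from 1507123 to 1521669, with 14 exons in its longest transcript. FAM131C (ENSSSCG00000003470) lies on the minus strand of chromosome 6 from 75193397 to 75213081, with 7 exons in the transcript that starts farthest upstream. IYD (ENSSSCG00000004093) lies on the minus strand of chromosome 1 from 15756536 to 15779380 and has 5 exons in its curated transcript. The first exon of another IYD transcript overlaps LOC106508815, a non-coding RNA on the plus strand, so counts in that stretch are uncertain if strand was not used in counting. RIPK4 (ENSSSCG00000012083) lies on the minus strand of chromosome 13 from 205127239 to 205153000, with 8 exons in its single transcript.

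The 250 bases before each annotated start are shown because the genes were high in the same diet, and motifs that could be shared were searched in them. They are the reference sequence of Sscrofa11.1, written 5′ to 3′ on the strand of the gene, from chr1:1506873-1507122 (plus), chr6:75213082-75213331 (minus), chr1:15779148-15779397 (minus) and chr13:205153001-205153250 (minus). For IYD the start is that of the curated transcript. Another IYD transcript starts at 15779380, so most of the IYD window lies inside that transcript. Capitals mark the letters of any motif found, on either strand.
FRMD1: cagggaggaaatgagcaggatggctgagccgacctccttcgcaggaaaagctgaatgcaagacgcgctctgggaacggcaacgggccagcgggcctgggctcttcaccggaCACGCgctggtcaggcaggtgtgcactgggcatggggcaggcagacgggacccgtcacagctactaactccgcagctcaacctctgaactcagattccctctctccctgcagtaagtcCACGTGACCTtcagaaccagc
FAM131C: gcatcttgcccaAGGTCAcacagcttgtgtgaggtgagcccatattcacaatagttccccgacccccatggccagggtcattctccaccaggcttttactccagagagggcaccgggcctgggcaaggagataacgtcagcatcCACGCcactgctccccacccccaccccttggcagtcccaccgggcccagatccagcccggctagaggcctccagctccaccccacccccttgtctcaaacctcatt
IYD: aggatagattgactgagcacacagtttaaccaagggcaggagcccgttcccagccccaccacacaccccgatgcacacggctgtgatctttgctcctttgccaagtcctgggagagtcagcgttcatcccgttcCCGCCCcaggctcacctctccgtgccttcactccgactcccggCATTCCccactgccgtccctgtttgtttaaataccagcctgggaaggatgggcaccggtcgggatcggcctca
RIPK4: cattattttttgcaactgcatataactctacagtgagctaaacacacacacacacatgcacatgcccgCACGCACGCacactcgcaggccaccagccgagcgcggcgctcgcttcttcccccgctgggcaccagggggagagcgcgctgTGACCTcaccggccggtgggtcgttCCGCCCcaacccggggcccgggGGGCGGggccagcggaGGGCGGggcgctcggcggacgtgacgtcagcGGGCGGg

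The core site of nuclear receptors, AGGTCA, was found before FRMD1, FAM131C and RIPK4 but not before IYD, and 12.2% of 19562 promoter windows of this length held it. Before FRMD1 it reads on the minus strand from 17 to 12 bases before the start and overlaps the E-box CACGTG, which sits from 21 to 16 bases before the start and was found in 6.35% of all windows. GCGTG, the core bound by the aryl hydrocarbon receptor, was found before the same 3 genes and in 32.3% of all windows. The GC box GGGCGG occurred once before IYD and 4 times before RIPK4, against 46.4% of all windows with at least 1. GGAATG, the site of TEAD factors, was found before IYD and in 10.2% of all windows. The TATA box TATAAA and the AP-1 site TGACTCA were found before 0 of the 4 genes and in 9.86% and 2.89% of all windows. No motif was found in all 4 of these windows, and the other annotated starts of FRMD1, FAM131C and IYD were not searched. The GC content was 61.6% before FRMD1 and FAM131C, 60.0% before IYD and 68.8% before RIPK4, within or just above the middle range of all windows (median 58.4%, quartiles 48.4% and 67.6%). A motif here is a match of letters, and nothing about binding was measured.

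The libraries held between 22373715 and 34745218 counts on genes, and the median library had 27522449 (C), 29104570 (DOP) or 27098819 (WCOC). CPM values, counts relative to the size of the library, are scaled by the trimmed mean of M-values (TMM) and are not per transcript length, so levels are compared between diets within a gene. A single count was worth 0.0296 to 0.0488 CPM, and 3 counts were 0.0887 to 0.147 CPM. The fat cell markers summed to between 15390 and 23730 CPM in all 15 libraries, as the tissue label has it. All 4 genes passed a minimum of 15 counts summed over the 15 libraries, as did 18403 genes in all, of which 6852 had a mean under 3 CPM, like these 4. This minimum does not use the diets, but it was taken because edgeR's own filter was known from earlier results to drop IYD and RIPK4.

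FRMD1 showed the widest range among the 4 genes. Its counts in C were 3, 1, 16, 8 and 7 in pigs 1 to 5, and in DOP they were 1, 0, 2, 1 and 0. In WCOC they were 191, 35, 14, 495 and 111. The counts of 4 WCOC pigs exceeded those of all control and all DOP pigs, while pig 3 of WCOC, with 0.458 CPM, lay below the highest control pig, with 0.510 CPM. The mean level was 0.249 ± 0.177 CPM in C, 0.0279 ± 0.0271 CPM in DOP and 5.42 ± 6.21 CPM in WCOC (SD, n = 5 each). The log2FC of WCOC vs. C was 4.38 (SE 0.83). Within WCOC the highest pig had 34.4 times the CPM of the lowest.

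FAM131C was the most even of the 4 in the control pigs. Its counts were 8, 10, 15, 15 and 9 in C, and 7, 15, 12, 8 and 50 in DOP. In WCOC they were 62, 76, 51, 205 and 40, so that every WCOC pig was above every control pig. Pig 5 of DOP, with 1.73 CPM, stood apart from the other DOP pigs and within the WCOC range of 1.18 to 6.53 CPM. The mean level was 0.436 ± 0.106 CPM in C, 0.649 ± 0.615 CPM in DOP and 2.85 ± 2.14 CPM in WCOC (SD, n = 5 each), a log2FC of 2.70 (SE 0.56) for WCOC vs. C.

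IYD was above the controls in only part of the WCOC pigs. Its counts were 2, 7, 1, 2 and 1 in C, and 6, 5, 6, 2 and 8 in DOP. In WCOC they were 33, 57, 30, 9 and 6. Pigs 1, 2 and 3 of WCOC, at 0.981 to 2.13 CPM, lay above all control and DOP pigs. Pigs 4 and 5 of WCOC, at 0.287 and 0.177 CPM, fell within the range of the control pigs, whose highest was 0.298 CPM. The mean level was 0.108 ± 0.110 CPM in C, 0.193 ± 0.0764 CPM in DOP and 0.931 ± 0.782 CPM in WCOC (SD, n = 5 each), a log2FC of 3.12 (SE 0.71) for WCOC vs. C.

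RIPK4 had the smallest log2FC of WCOC vs. C and the smallest spread within WCOC. Its counts were 2, 2, 2, 5 and 4 in C, 5, 5, 12, 8 and 4 in DOP, and 37, 16, 10, 16 and 24 in WCOC. Every WCOC pig was above every control pig, and pig 3 of WCOC, at 0.327 CPM, was below the highest DOP pig, at 0.371 CPM. The mean level was 0.115 ± 0.0513 CPM in C, 0.240 ± 0.0939 CPM in DOP and 0.672 ± 0.334 CPM in WCOC (SD, n = 5 each), a log2FC of 2.50 (SE 0.43) for WCOC vs. C.

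**Figure D1:**
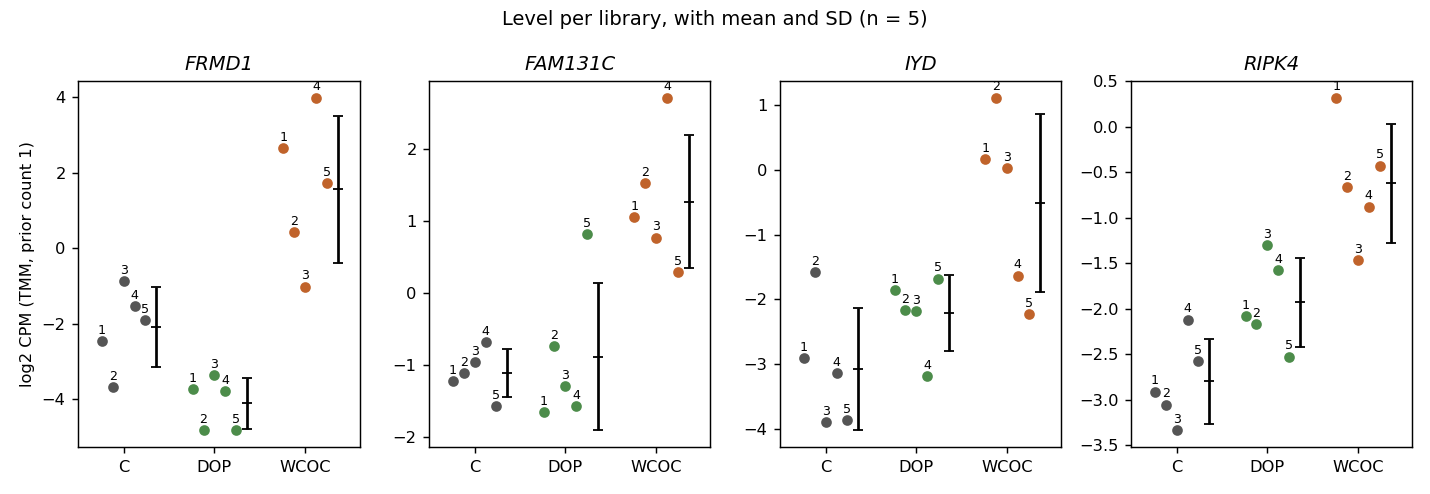
Level of FRMD1, FAM131C, IYD and RIPK4 in each of the 15 libraries, as log2 CPM with a prior count of 1, by diet (C grey, DOP green, WCOC orange). Numbers are the pigs of a diet, and bars give the mean and SD of 5 pigs. WCOC lies above C without overlap for FAM131C and RIPK4, while pig 3 of WCOC for FRMD1 and pigs 4 and 5 of WCOC for IYD lie within the control range.

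The groups of WCOC and C did not overlap for 2 of the 4 genes, beside 3.24% of all 18403 tested genes and 2.28% of the 6852 genes under 3 CPM that were higher in WCOC without overlap. Since the genes were chosen in this contrast, nothing is read from that difference. Ranked by log2FC from the highest, FRMD1 was number 9, IYD number 20, FAM131C number 35 and RIPK4 number 46 of the 18403. The median log2FC of all tested genes was 0.01. In bulk tissue, a change in the number of cells of a type and a change in RNA per cell cannot be told apart, and this holds for each value given here.

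**Figure D2:**
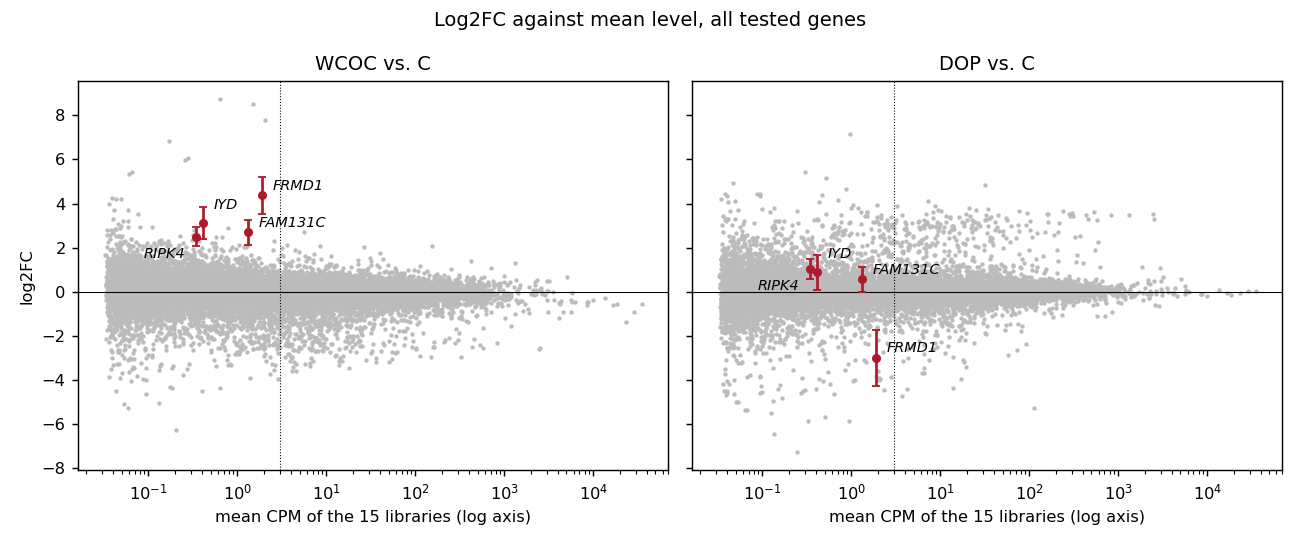
Log2FC against the mean CPM of the 15 libraries (log axis) for the 18403 tested genes (grey), WCOC vs. C on the left and DOP vs. C on the right, with the 4 genes in red and their SE as bars. The dotted line marks 3 CPM. All 4 genes lie between 2.50 and 4.38 on the left, whereas on the right FRMD1 lies at -2.99 and the other 3 between 0.58 and 1.04.

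The pigs of a diet differed beyond counting error in some of these genes, as animals can, and WCOC is the diet in which the genes were chosen. The coefficient of variation in WCOC was 115% for FRMD1, where Poisson counting alone would give 7.69%. It was 75.2% against 10.7% for FAM131C, 83.9% against 19.3% for IYD and 49.7% against 22.03% for RIPK4. In C, the coefficient of variation of FAM131C and RIPK4 (24.3% and 44.6%) was not above that of counting alone (29.6% and 57.7%). On the log2 CPM scale, the SD of FRMD1 in WCOC was 1.94, larger than that of 98.5% of the 1951 genes with a mean within 2-fold of its own. The SD of IYD in WCOC was 1.38, larger than that of 95.3% of 2137 such genes. For FAM131C (SD 0.93) this share was 89.7% of 2023 genes, and for RIPK4 (SD 0.65) it was 59.0% of 2111 genes. These values are a description, and nothing is read from them.

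Pig 4 of WCOC had the highest FRMD1 (15.8 CPM) and FAM131C (6.53 CPM) of all 15 libraries, whereas pig 2 of WCOC had the highest IYD (2.13 CPM) and pig 1 of WCOC the highest RIPK4 (1.21 CPM). Without pig 4 of WCOC, the log2FC of WCOC vs. C was 3.44 for FRMD1 and 2.13 for FAM131C. Without pig 2 of WCOC it was 2.57 for IYD, and without pig 1 of WCOC it was 2.17 for RIPK4; these were the lowest of the 10 values that each gene took when a library of the 2 diets was left out. The highest were 4.82 for FRMD1 without pig 3 of C, 2.89 for FAM131C without pig 5 of WCOC, 3.92 for IYD without pig 2 of C and 2.77 for RIPK4 without pig 4 of C.

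Whether the genes were high in the same pigs of a diet was not part of how they were chosen, so it was tested. The log2 CPM was centred on the mean of its diet and the 6 pairs of genes were compared over the 15 libraries, with 100000 permutations within diets (two-sided) and Benjamini-Hochberg adjustment over the 6 pairs. No pair passed the threshold. The largest relation in size was negative, between FRMD1 and IYD, with Pearson's r of -0.59 (permutation p = 0.0878, adjusted p = 0.467) and Spearman's rho of -0.56 (permutation p = 0.0906, adjusted p = 0.544). Without pigs 3 and 4 of WCOC, the pigs farthest from the median of FRMD1, r was -0.57 (permutation p = 0.107). FRMD1 and RIPK4 had an r of 0.46 (permutation p = 0.156, adjusted p = 0.467) and a rho of 0.38 (permutation p = 0.224, adjusted p = 0.673), and r was 0.53 without those pigs (permutation p = 0.0986). Both genes lay on the same side of the diet mean in 4 of 5 pigs of each diet.

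The other 4 pairs gave no steady direction or a weak one. FRMD1 and FAM131C had an r of 0.18 (permutation p = 0.61, adjusted p = 0.731) and a rho of 0.08 (permutation p = 0.79, adjusted p = 0.79), which turned to an r of -0.35 without pigs 3 and 4 of WCOC and to -0.24 without pig 4 alone. FAM131C and IYD had an r of 0.16 (permutation p = 0.645, adjusted p = 0.731) and a rho of 0.17 (permutation p = 0.57, adjusted p = 0.79). That r was 0.57 without pig 5 of DOP and pig 4 of WCOC, and -0.07 without pig 5 of WCOC. FAM131C and RIPK4 had an r of -0.32 (permutation p = 0.317, adjusted p = 0.633) and a rho of -0.29 (permutation p = 0.348, adjusted p = 0.696), and r was 0.02 without pig 5 of DOP and pig 4 of WCOC. IYD and RIPK4 had an r of -0.12 (permutation p = 0.731, adjusted p = 0.731) and a rho of -0.14 (permutation p = 0.664, adjusted p = 0.79), and r was -0.08 without pigs 2 and 5 of WCOC. With 15 libraries and counts this low, a relation of moderate size could have been missed.

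**Figure D3:**
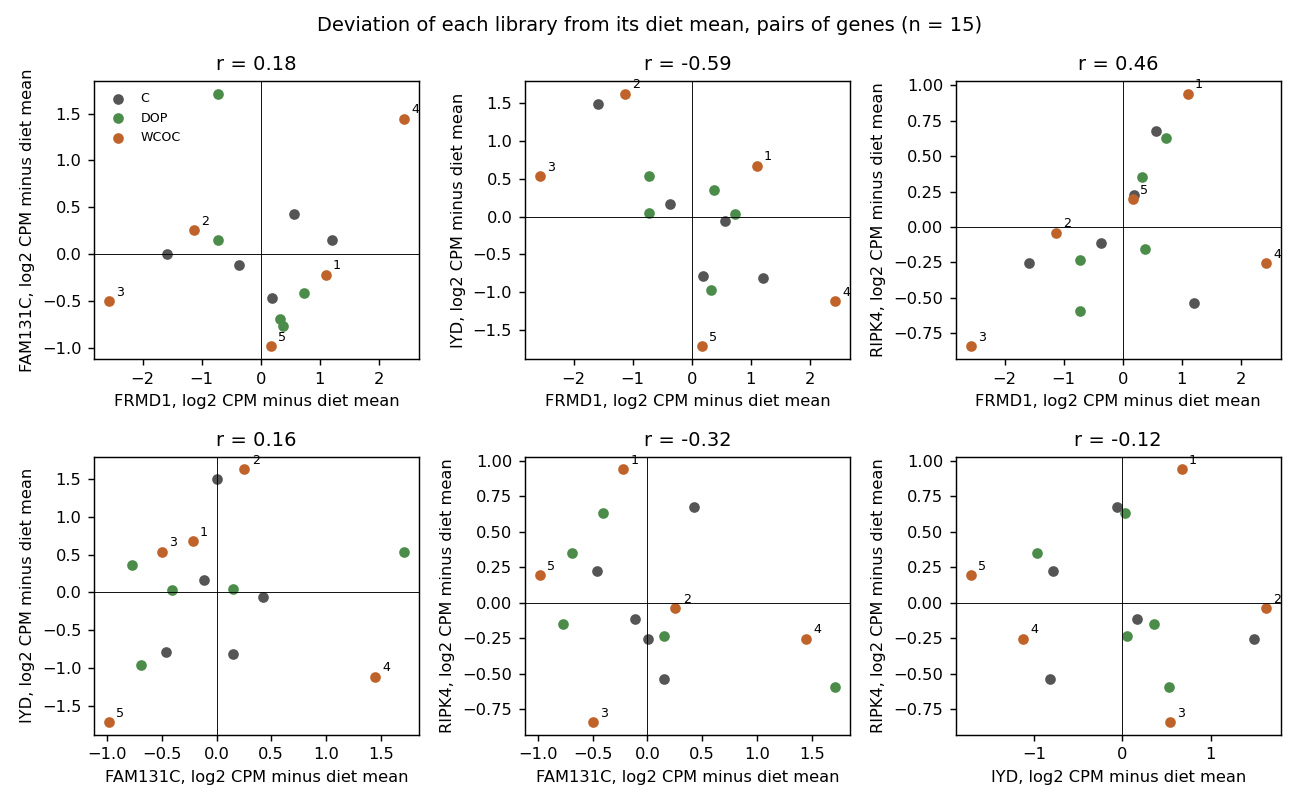
Deviation of each library from its diet mean (log2 CPM) for the 6 pairs of genes, with 15 libraries per panel, coloured by diet (C grey, DOP green, WCOC orange) and with WCOC pigs numbered. The r in each title is Pearson's, between -0.59 and 0.46, and no pair passed the permutation test after adjustment.

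The DOP diet, the other olive by-product, was compared with C in the same edgeR fit and with the same control pigs. Those control values also entered the choice of the 4 genes, so this comparison is not independent of the choice. A choice by high WCOC over C favours low control values, which would raise the log2FC of DOP vs. C as well. Of all tested genes, 0.446% were called in DOP vs. C (82 of 18403, with the adjusted p below 0.05 and the log2FC at 0.58 or beyond in either direction), and none of the 4 genes was among them. FRMD1 had 0 counts in 2 DOP pigs, 1 count in another 2 and 2 counts in the last, against 1 to 16 counts in the control pigs, the lowest of which also had 1 count. Its summed counts were 4 in DOP and 35 in C, a ratio of CPM of 9.31 of C over DOP with a 95% interval of 3.33 to 36.1 that covers counting error only. The log2FC was -2.99 (SE 1.27), with an unadjusted p of 0.0248 and an adjusted p of 0.238 in edgeR's quasi-likelihood test. An unadjusted p under 0.05 was found for 16.1% of all tested genes in this comparison.

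RIPK4 had a log2FC of 1.04 (SE 0.46) in DOP vs. C, with 3 of 5 DOP pigs above every control pig, an unadjusted p of 0.033 and an adjusted p of 0.266 in the same edgeR test. IYD had a log2FC of 0.89 (SE 0.79, edgeR adjusted p = 0.629) and its groups overlapped. FAM131C had a log2FC of 0.58 (SE 0.57, edgeR adjusted p = 0.674), which turned to -0.20 without pig 5 of DOP. That pig also had the highest summed skeletal muscle markers, 41360 CPM, against 31.5 to 9321 CPM in the other DOP pigs, and the part of muscle in its FAM131C level was not tested. Over the other fits and the fits without a library, the adjusted p lay between 0.0545 and 0.619 for FRMD1, 0.548 and 0.924 for FAM131C, 0.341 and 0.809 for IYD, and 0.254 and 0.739 for RIPK4. The standard errors leave room for changes of 2-fold and more in DOP, so the 4 genes are not shown to be at the control level there.

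The order of the diets was thus DOP, C, WCOC by mean level for FRMD1 and C, DOP, WCOC for the other 3 genes, with C and DOP not distinguished in any of them. Set against DOP, FRMD1 in WCOC had a log2FC of 7.36 (SE 1.09) and no overlap, as had 3.64% of all genes in that direction, and the ratio of summed counts scaled to CPM was 193 (95% counting interval 74.99 to 709). FAM131C had a log2FC of 2.12 (SE 0.53), IYD of 2.23 (SE 0.65) and RIPK4 of 1.46 (SE 0.38), each with overlap of at least 1 pig. The WCOC libraries are those in which the genes were chosen, so these are descriptions.

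Flow cell and lane are not given by the sample labels and were taken from the names under which the counts were deposited. By these names, all DOP libraries and pig 5 of C were read on another flow cell than the other libraries, so pig 5 is the only control beside DOP there. It had 0.233 CPM of FRMD1, above the DOP range of 0 to 0.0618 CPM. Its IYD (0.0333 CPM) and RIPK4 (0.133 CPM) were below the DOP ranges of 0.0750 to 0.277 CPM and 0.139 to 0.371 CPM, and its FAM131C (0.299 CPM) was within the DOP range of 0.281 to 1.73 CPM. With flow cell as a term beside the diet, an alternative added after the data were seen, the log2FC of DOP vs. C was -2.85 for FRMD1, 1.11 for FAM131C, 2.39 for IYD and 0.84 for RIPK4 (edgeR adjusted p = 0.619, 0.745, 0.641 and 0.739). WCOC vs. C can be taken within a flow cell. On the flow cell that held pigs 1 to 4 of C and all WCOC pigs, the log2FC was 4.33 for FRMD1, 2.58 for FAM131C, 2.87 for IYD and 2.56 for RIPK4. Within the lane that held pigs 1 to 4 of C and pigs 1 to 3 of WCOC, an alternative added after the data were seen, it was 3.31 for FRMD1, 2.18 for FAM131C, 3.46 for IYD and 2.64 for RIPK4. By the names, this lane held more libraries than the 4 samples per lane that the authors give, so the lane is uncertain.

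Genes that work with or resemble the 4 were counted from lists written from general knowledge. Of 28 genes of thyroid hormone synthesis, transport and action, 25 were matched by symbol and 20 were tested. In WCOC vs. C, 1 was called higher and 1 lower, beside 1.85% and 3.06% of all tested genes, and the median log2FC of the list was -0.07. CRYM, which encodes a cytosolic protein that binds thyroid hormone, was 56.3 ± 10.2 CPM in WCOC and 19.6 ± 6.59 CPM in C (SD, n = 5 each). Its log2FC was 1.52 (SE 0.24, edgeR adjusted p = 0.00206). DUOX2, which encodes an oxidase that makes hydrogen peroxide for iodination, was 3.24 ± 0.386 CPM in WCOC and 6.43 ± 2.09 CPM in C, and fell by 0.99 on the log2 scale (SE 0.21, edgeR adjusted p = 0.0147). Both calls were made in all 10 fits that left out a library and in 9 of 10 other fits, and both were lost in the lane with 7 libraries. In DOP vs. C, 0 of the 20 genes were called, beside 0.446% of all tested genes. THRA, the thyroid hormone receptor alpha, had an edgeR adjusted p of 0.031 there with a log2FC of 0.48, under the limit on size.

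SLC5A5 and TG, genes of the thyroid gland itself, were near 0 in this tissue. SLC5A5, the iodide transporter, had 1 count over all 15 libraries, and TG, the protein on which the hormone is made, had a mean of 0.133 CPM. TSHR, the receptor for thyrotropin, had 29.4 CPM, with a log2FC of 0.49 in WCOC vs. C (SE 0.25, edgeR adjusted p = 0.256). DIO2, which activates thyroxine, had 1.74 CPM and a log2FC of -0.37 (SE 0.26, edgeR adjusted p = 0.434). THRSP, a gene of fat synthesis that responds to thyroid hormone, had 4147 CPM, the highest of the list without regard to transcript length, and a log2FC of -0.50 (SE 0.24, edgeR adjusted p = 0.228).

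In the list of RIP kinases and partners of RIPK4, 16 of 18 genes were tested. In WCOC vs. C 0 were called, beside 1.85% and 3.06% of all tested genes called higher and lower, and the median log2FC was -0.12. RIPK1, RIPK2 and RIPK3, the kinases of cell death and innate immunity after which the family is named, had log2FC of 0.07, -0.06 and -0.14 (edgeR adjusted p = 0.709, 0.791 and 0.716). GRHL3, a transcription factor of epidermal differentiation, had a log2FC of -0.12 (SE 0.33, edgeR adjusted p = 0.866). The highest values of the list, 1.24 for PKP1 (SE 1.15, edgeR adjusted p = 0.554) and 1.11 for OVOL1 (SE 0.96, edgeR adjusted p = 0.505), had wide errors. LRRK1 was called higher in WCOC vs. DOP (log2FC 0.81, SE 0.16, edgeR adjusted p = 0.00833), beside 2.2% of all genes called higher there, but not against C (log2FC 0.42, edgeR adjusted p = 0.123), nor against DOP with flow cell as a term (log2FC 0.79, edgeR adjusted p = 0.382).

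Of 35 genes with a FERM domain, 34 were tested, and 3 were called higher and 1 lower in WCOC vs. C, beside 1.85% and 3.06% of all tested genes, with a median log2FC of 0.12. FRMD5 was at 3.98 ± 0.526 CPM in C and at 6.79 ± 2.04 CPM in WCOC, with a log2FC of 0.77 (SE 0.22, edgeR adjusted p = 0.0428). MYLIP, a ubiquitin ligase of lipoprotein receptors, had a log2FC of 0.60 (SE 0.10, edgeR adjusted p = 0.00299), and TLN2, a talin, had 0.60 (SE 0.14, edgeR adjusted p = 0.0217). FERMT3, the kindlin of blood cells, fell by 1.503 on the log2 scale (SE 0.37, edgeR adjusted p = 0.0261). Without 1 library, the call of FRMD5 held in 2 of 10 fits (without pig 2 or pig 5 of WCOC). That of MYLIP was lost without pig 3 or 4 of C or pig 1 or 4 of WCOC, through the limit on size, and that of TLN2 without pig 3 or 5 of C or pig 1 or 3 of WCOC. That of FERMT3 was lost without pig 3 or 5 of C or pig 1, 3 or 4 of WCOC. On the flow cell with all WCOC pigs, MYLIP alone of the 4 stayed called, and none did in the single lane. The calls of FRMD5 and FERMT3 were also lost with the replicate block, and that of FRMD5 with no filter or with the 2 diets alone. In WCOC vs. DOP, 3 were called higher and 1 lower, beside 2.2% and 4.12% of all tested genes, with FRMD4B at -1.58 (SE 0.40, edgeR adjusted p = 0.0274), FRMD5 at 1.17 (SE 0.22, edgeR adjusted p = 0.00642) and EZR, which encodes ezrin, at 0.61 (SE 0.15, edgeR adjusted p = 0.0213). Without 1 library, FRMD5 stayed called in all 10 fits of that comparison, EZR in 6 and FRMD4B in 4, and none of the 3 was called with flow cell as a term. FRMD6, the nearest relative of FRMD1, was at 73.1 ± 11.5 CPM in C and at 78.8 ± 15.04 CPM in WCOC, with a log2FC of 0.11 (SE 0.16, edgeR adjusted p = 0.733). In the list of the Hippo pathway, which includes FRMD6 itself, 0 of 26 genes were called in any of the 3 comparisons, and the median log2FC in WCOC vs. C was 0.11. At the shares of all tested genes given above, a list of this size can hold few or no calls, so nothing is read from the 0. YAP1 (log2FC 0.44, edgeR adjusted p = 0.0158) and SAV1 (log2FC 0.36, edgeR adjusted p = 0.0423) in WCOC vs. C were under the limit on size alone. So was SAV1 in DOP vs. C (log2FC 0.50, edgeR adjusted p = 0.0425). The genes of highest CPM in these lists, TLN1 of the FERM genes (896.9 CPM) and AMOTL1 of the Hippo pathway (146.3 CPM), had log2FC of 0.38 and 0.14 (edgeR adjusted p = 0.109 and 0.627). CRYM and DUOX2 were also the 2 genes of the thyroid list called in WCOC vs. DOP (log2FC 1.69 and -0.93, edgeR adjusted p = 0.00162 and 0.0182), and neither was with flow cell as a term. The relative of FAM131C that was matched, FAM131B, had 0.205 CPM over all libraries and a log2FC of -0.76 (SE 0.50, edgeR adjusted p = 0.373). In DOP vs. C, 0 genes of these lists were called, beside 0.446% of all tested genes.

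**Figure D4:**
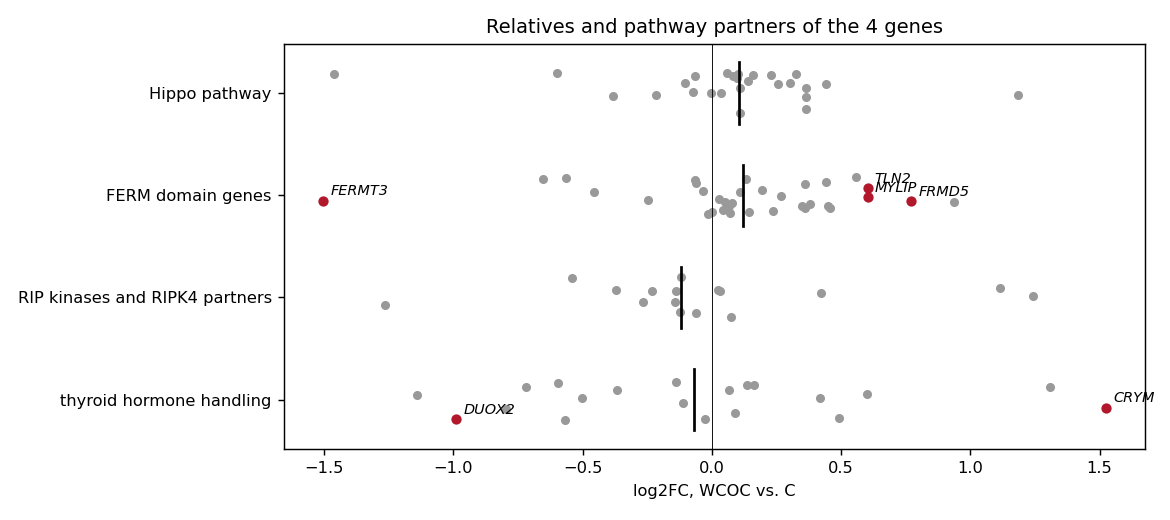
Log2FC of WCOC vs. C for the tested genes of 4 lists around the 4 genes, which are themselves left out. Each point is a gene, red where called and named, and the black bar is the median of the list, between -0.12 and 0.12. The vertical position within a list has no meaning.

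RIPK4 is best known from the epidermis, so markers of skin and of other tissues are given beside the 4 genes. Of 18 epidermal markers, 12 were matched, and KRT5 and KRT14 were not among them. Their summed level was 4.44 to 72.0 CPM in C, 2.13 to 23.4 CPM in DOP and 2.98 to 158 CPM in WCOC. In WCOC vs. C 0 of 11 tested markers were called, beside 1.85% and 3.06% of all tested genes called higher and lower. The highest sum in DOP, that of pig 5, was mostly 1 gene: TP63 gave 593 of its 676 counts, and 6 of the 12 markers were at 0. The keratin gene KRT1 had a mean of only 0.354 CPM in DOP, against 4.63 CPM in C and 13.6 ± 26.1 CPM in WCOC (SD, n = 5). In WCOC vs. DOP, KRT1 was the 1 of 11 tested markers called higher (log2FC 5.25, SE 1.53, edgeR adjusted p = 0.0432), beside 2.2% of all genes. That call was made in 3 of 10 fits that left out a library, and not with flow cell as a term. The median log2FC of the 11 was 4.14, with TP63 the other way at -4.19. In pig 1 of WCOC, which had the highest RIPK4, epidermal markers summed to 2.98 CPM, the lowest of WCOC, and 6 of the 12 were at 0. In pig 3 of C, with 72.0 CPM of epidermal markers, RIPK4 was 0.0638 CPM. That was the lowest CPM of all libraries, but it came from 2 counts, as many as in pigs 1 and 2 of C. In pig 5 of WCOC, with 158 CPM, the most of all libraries, RIPK4 was 0.709 CPM, higher than in every library but that of pig 1 of WCOC. Hair follicle markers, 7 of 8 matched, summed to 63.2 CPM in pig 2 of WCOC, the pig with the highest IYD, and to at most 0.301 CPM in every other library. Of 4 tested, KRT25 was called higher in WCOC vs. C (log2FC 8.51, SE 2.56, edgeR adjusted p = 0.0422), with 592 of its 598 counts in pig 2 of WCOC. In WCOC vs. DOP, KRT25 and KRT71 were called higher, each in 4 of 9 fits that left out a library and neither with flow cell as a term. Pigs 1 and 3 of WCOC had hair follicle markers of 0.0328 and 0.0327 CPM with IYD at 1.08 and 0.981 CPM. The part of epidermis or hair follicle in the levels of the 4 genes was not tested.

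Some macrophage markers were lower in WCOC, and MSR1 among them also in DOP. Their sum was 247 to 730 CPM in C, 175 to 442 CPM in DOP and 117 to 325 CPM in WCOC. In WCOC vs. C, 5 of 10 were called lower (CD68, CD163, MRC1, MSR1 and AIF1), beside 3.06% of all genes. CD68 was called in all 10 fits that left out a library, MSR1 in 7, AIF1 in 5, and CD163 and MRC1 in 3. On the flow cell with all WCOC pigs CD68 alone of the 5 stayed called, and all 5 calls were lost with the replicate block and in the single lane. In DOP vs. C, 1 of the 10 was called, beside 0.446% of all genes, and in 3 of 10 fits that left out a library. It was MSR1 (log2FC -3.18, SE 0.64, edgeR adjusted p = 0.0425), which had a log2FC of -2.68 in WCOC vs. C. CD68 had a log2FC of -1.49 (edgeR adjusted p = 0.142) and AIF1 of -1.22 (edgeR adjusted p = 0.0632) in DOP vs. C. Their part in the levels of the 4 genes was not tested. Skeletal muscle markers, 6 of 12 matched, summed to 43.6 to 3252 CPM in C, 31.5 to 41360 CPM in DOP and 16.9 to 644 CPM in WCOC. Markers of glandular epithelium (11 of 12 matched) summed to 16.3 to 38.6 CPM in C, 12.4 to 28.7 CPM in DOP and 16.2 to 56.0 CPM in WCOC, with 0 of 10 tested called in WCOC vs. C. Of 9 fat cell markers tested, ADIPOQ was called higher in WCOC vs. C, in 4 of 10 fits that left out a library. Of the 6 endothelial markers matched, CLDN5 was called higher in WCOC vs. C, and of 5 tested nerve and Schwann cell markers 0 were called. Of all tested genes, 1.85% were called higher and 3.06% lower in WCOC vs. C, and lists this short can hold few or no calls at such shares.

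**Figure D5:**
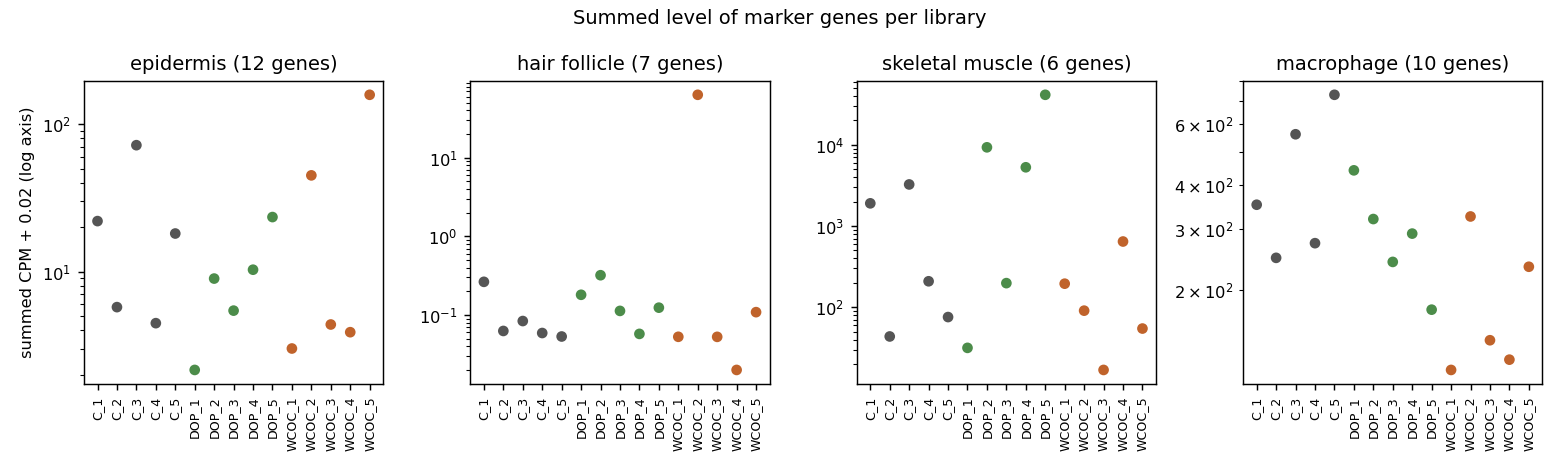
Summed CPM of the matched epidermal, hair follicle, skeletal muscle and macrophage markers in each of the 15 libraries (log axes, 0.02 CPM added). Hair follicle markers are at 63.2 CPM in pig 2 of WCOC and at most 0.301 CPM elsewhere, and epidermal markers are highest in pig 5 of WCOC at 158 CPM.

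The genes with a symbol whose log2 CPM over the 15 libraries followed each of the 4 most closely are given as a description, since the points share diet, library and depth. Only the 13166 tested genes with a symbol were searched, so a gene without one may lie closer. For FRMD1 they were RNF145 (r = 0.94), a ubiquitin ligase of the endoplasmic reticulum, TF (r = 0.92), which encodes transferrin, RAMP3 (r = 0.92), IGFBP4 (r = 0.91) and ITIH5 (r = 0.91). All 5 had their highest mean in WCOC, such as ITIH5 with 1073 CPM in WCOC, 512 CPM in C and 523 CPM in DOP. For FAM131C they were JADE1 (r = 0.94), the deacetylase gene HDAC6 (r = 0.90), CAMK2G (r = 0.88), ZNF219 (r = 0.87) and RGSL1 (r = 0.87). For IYD they were the growth factor gene PDGFC (r = 0.88), the leptin receptor gene LEPR (r = 0.85), ADAM2 (r = 0.84), ERCC3 (r = 0.84) and OPRD1 (r = 0.83). LEPR itself had 2.01 CPM in WCOC, 0.457 CPM in C and 0.656 CPM in DOP. For RIPK4 they were AFDN (r = 0.92), which encodes the junction protein afadin, IL15 (r = 0.91), CYP2S1 (r = 0.90), NICN1 (r = 0.90) and ARSG (r = 0.89), and IL15 had 34.7 CPM in WCOC, 19.3 CPM in C and 23.6 CPM in DOP. The 4 sets of 5 genes shared none.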

How the data were processed

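RNA from backfat biopsies of 15 pigs was sequenced by the authors as strand-specific read pairs, aligned to Sscrofa11.1 with HISAT2 and counted per Ensembl gene with HTSeq. The deposited values are raw counts, with 30477 genes and 5 summary lines per library. The summary lines (23.4% to 32.8% of a library) were left out. Whether HTSeq used strand, and which Ensembl release, is not given in the sources used here. CPM and log2 values were computed here from the deposited counts.

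Genes with at least 15 counts over the 15 libraries were fitted in R 4.3.3 with edgeR 4.0.16 (TMM, glmQLFit and glmQLFTest, 1 mean per diet, two-sided, Benjamini-Hochberg over 18403 genes). Calls needed an adjusted p below 0.05 and a log2FC of 0.58 or more in either direction. The SE is the size of the log2FC without shrinkage over the square root of the quasi-likelihood F statistic. For the 4 genes in the contrasts with WCOC it is therefore a description, as the log2FC is. DESeq2 1.42.0 and limma 3.58.1 served as alternatives, and scipy 1.17.1, pandas 2.3.3, numpy 2.4.6 and matplotlib 3.10.9 in Python 3.11.15 for pairs of genes and plots. Log2 CPM used a prior count of 1. Counting intervals are exact at 95% and cover counting error only. The steps were tested on simulated data. The most alike pair of libraries of a diet differed by a chi-square of 47.8 per gene, so no library was taken as deposited more than once.

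The 4 genes and the lists were chosen with earlier results of these data known. Named beside them by rule are at most 3 called genes per pathway list and comparison, relatives by family name and the highest-CPM member. The 5 genes with a symbol of highest r and neighbours that overlap were named by rule too. TLN2, the markers and other list members were named after their values were seen, and most list members are given as counts alone. Symbols were matched for 14864 genes. A few results are not reported here.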

Additional observations from a re-analysis of the deposited data

Results flagged for a closer look

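Among the 12 sets of 5 libraries (4 genes in 3 diets), 2 held a library whose gap to the nearest of the others was over 0.71 of the range of its diet, Dixon's limit for 5 samples. Chance alone marks about 1 set in 20 where values are normally distributed. The share is not known for CPM from counts this low, so 2 of 12 is not read as more than chance. FAM131C was 1.73 CPM (50 counts) in pig 5 of DOP, a gap of 0.805 of the range. IYD was 0.298 CPM (7 counts) in pig 2 of C, a gap of 0.753 of the range.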

How the results depend on the processing

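For the 4 genes, the log2FC of WCOC vs. C kept its direction in the 40 fits that left out a library and in the 38 other fits, over ranges of 3.31 to 4.82 for FRMD1, 2.13 to 2.89 for FAM131C, 2.57 to 3.92 for IYD and 2.17 to 2.77 for RIPK4. In DOP vs. C none was called in any fit, and FAM131C turned to -0.198 without pig 5 of DOP. Leaving out 1 library gave log2FC in DOP vs. C of -3.50 to -2.54 for FRMD1, -0.198 to 0.759 for FAM131C, 0.631 to 1.69 for IYD and 0.821 to 1.31 for RIPK4. The r within diets of FRMD1 and FAM131C ran from -0.237 to 0.406 and that of FAM131C and IYD from -0.0716 to 0.466 when a library was left out; the other 4 pairs kept their sign. The cause was not tested for any of these.

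The number of genes called in WCOC vs. C, 904, was 414 with the replicate number as a block, 434 on 1 flow cell, 28 in 1 lane (7 libraries, so fewer samples) and 423 to 1136 without 1 library, with 423 without pig 1 of WCOC, 474 without pig 3 of C and 528 without pig 4 of WCOC. In DOP vs. C, 82 genes were called, against 517 by DESeq2, 12 by limma-voom, 2 with the 2 diets alone, 0 with the replicate block (2177 at an unadjusted p under 0.05 in edgeR) 167 with flow cell as a term, and 0 to 191 without 1 library, with 0 without pig 3 or 5 of C or pig 2 or 4 of DOP, 1 without pig 5 and 2 without pig 3 of DOP, 48 without pig 4 of C and 191 without pig 1 of C. In WCOC vs. DOP, 1163 genes were called, against 768 with the 2 diets alone, 507 with the replicate block, 1 with flow cell as a term (2310 at an unadjusted p under 0.05 in edgeR; C pig 5 alone links the flow cells) and 574 to 1316 without 1 library, with 662 and 644 without pig 2 or 5 of DOP and 574, 742, 595 and 708 without pig 1, 3, 4 or 5 of WCOC. The numbers do not pair the pigs: same-numbered libraries deviated together with r of -0.602 to 0.407, over 0.1 in 3 of 15 pairs, and 1 library was closest to its own number. With the block, adjusted p in DOP vs. C was 0.301 for FRMD1, 0.803 for FAM131C, 0.533 for IYD and 0.423 for RIPK4. The filter of edgeR for low counts would have removed IYD and RIPK4, so that fit gave no values for them. At 3 counts or fewer, as for FRMD1 in DOP, the depth limits any fold.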
